A study of Mus musculus and blank sample with 91 samples.

Results

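Lachnospiraceae are a large family of anaerobic gut bacteria, and the members described here are its amplicon sequence variants (ASVs, exact read sequences of the 16S rRNA gene) that were seen repeatedly. An ASV was a member if it was placed in Lachnospiraceae, was not named Coprococcus, Anaerostipes, Marvinbryantia or Stomatobaculum, and had a count above 0 in at least 3 of the 88 fecal samples with a count. This left 226 of all 2295 ASVs. The family held 911 ASVs, of which 82 belonged to the 4 genera set aside and 603 were seen in only 1 or 2 samples. The members were thus chosen by their own counts, so the number of samples that held them and their level are descriptions. Treatment and day were not used to choose them.

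Lachnospiraceae ferment plant polysaccharides and host glycans that reach the colon, and many of them form butyrate, acetate or propionate. Butyrate feeds the colonic epithelium and is known for its effects on regulatory T cells, and the family is therefore often followed in models of autoimmune disease. Many genera of the family are known only by the code of a clone or a reference genome.

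Female C57BL/6 mice, 8 weeks old, were left untreated (naïve), were given Complete Freund's Adjuvant alone (CFA), or were immunized with the peptide MOG35–55 of myelin oligodendrocyte glycoprotein in the same adjuvant and injected with pertussis toxin. The last treatment induces experimental autoimmune encephalomyelitis (EAE), a model of multiple sclerosis with ascending paralysis. EAE and CFA mice therefore differed by both the peptide and the toxin. Feces were sampled at -2, 8, 14, 19 and 29 days post-immunization (dpi) from 6 mice per treatment, with 5 EAE samples at 14 dpi and 5 usable CFA samples at 29 dpi. Mice shared cages and a treatment was given to a whole cage, and since the labels do not name the cage, cage and treatment cannot be told apart. Each sample came from a separate mouse of its group, and naïve and CFA mice kept their number over the days, whereas EAE mice carried other numbers from 14 dpi on. The deposited sample table joined these, with 6 EAE mice under 2 numbers each.

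Total counts were between 9202 and 102437 per sample, with a median of 64586. The EAE sample of mouse 555 at 8 dpi held no count of any member. At a floor of 3 counts, a count of 0 allowed a share of up to 0.00293% in the deepest sample and up to 0.0326% in the shallowest one. The lowest count above 0 of a member ASV was 67 and the median was 571, so ASVs with a few reads were not present among these values. Such limits cover counting error only, because reads of an amplicon are not independent molecules.

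The amplified region V3 to V4 was bounded by a pair of primers whose ambiguous positions split a single bacterial sequence into several ASVs. The forward primer has 17 bases with an ambiguous position N, which stands for any base, and an ambiguous position W, which stands for A or T, and the reverse primer has 21 bases with a pair of ambiguous positions. All 226 member ASVs still carried both primers. Once the primers were removed, all 2295 ASVs, of which 2274 carried both primers, came from 501 different sequences. The 226 member ASVs came from 48 of them. These 48 are called member sequences below and are numbered within a genus by their total count, and each was counted with all ASVs that shared it. A member sequence was split into 5 to 24 ASVs, with a median of 11, of which 1 to 18 were members.

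Most member sequences were present in a sample with a single combination of primer bases. In 784 of 1107 cases in which a member sequence was present in a sample, which is 70.8%, there was 1 such primer variant, and the largest number was 14. The median count was 479.5 where 1 variant was present, 1461 where there were 2 or more, and 3918 in the 17 cases with 5 or more. At position N of the forward primer, members had A in 58.7% of their counts and T in 40.1%, and C and G were rare, at 0.244% and 0.957%. Over all bacteria, A held 46.4%, T 39.4%, C 3.06% and G 11.1% of counts at this position. At position W, A held 90.6% and T 9.41% of the members' counts.

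The rule's lower limit lay within a broad range of rare ASVs. Among Lachnospiraceae outside the 4 genera, 84 ASVs were seen in exactly 3 samples and had a median total count of 1644, with a range of 561 to 4096. Just outside, 121 ASVs were seen in 2 samples with a median of 884 and a range of 143 to 3471, and 89 of these shared a sequence with a member. A member ASV was seen in 3 to 17 samples with a median of 4, whereas a member sequence was seen in 6 to 59 samples with a median of 16. The 48 sequences were 402 to 420 bases long, with 29 of them at 402 bases, and their GC content was 49.4% to 60.2%. The median number of base differences to the nearest other member sequence was 13, and 9 sequences lay 1 difference from another.

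The members held 779401 counts, 13.9% of all counts. Their mean share of a sample in naïve mice was 11.1% ± 7.67 (SD, n = 6), 17.8% ± 13.5, 12.2% ± 4.98, 13.3% ± 4.11 and 13.0% ± 13.3 on days -2, 8, 14, 19 and 29. In CFA mice it was 12.0% ± 5.25, 17.5% ± 9.85, 26.5% ± 14.4, 10.99% ± 5.52 and 11.3% ± 7.58 (n = 5) over the same days. In EAE mice it was 13.2% ± 7.37, 13.4% ± 11.1, 6.08% ± 3.12 (n = 5), 11.1% ± 8.02 and 13.8% ± 12.4. The total thus stayed between 10.99% and 17.8% in 13 of 15 groups, and left this range at 14 dpi, where it was highest in CFA mice and lowest in EAE mice. The 5 EAE samples at 14 dpi lay between 2.67% and 10.4% with a median of 5.08%, and the 6 CFA samples lay between 13.2% and 47.8% with a median of 20.4%, so these groups did not overlap. The number of member sequences followed the same order, with 21 ± 4.60 per sample in CFA mice and 9.20 ± 5.72 in EAE mice at 14 dpi, against 12.3 ± 2.80 in naïve mice. No test was made on these totals, since the members were chosen with results of these data known.

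**Figure D1:**
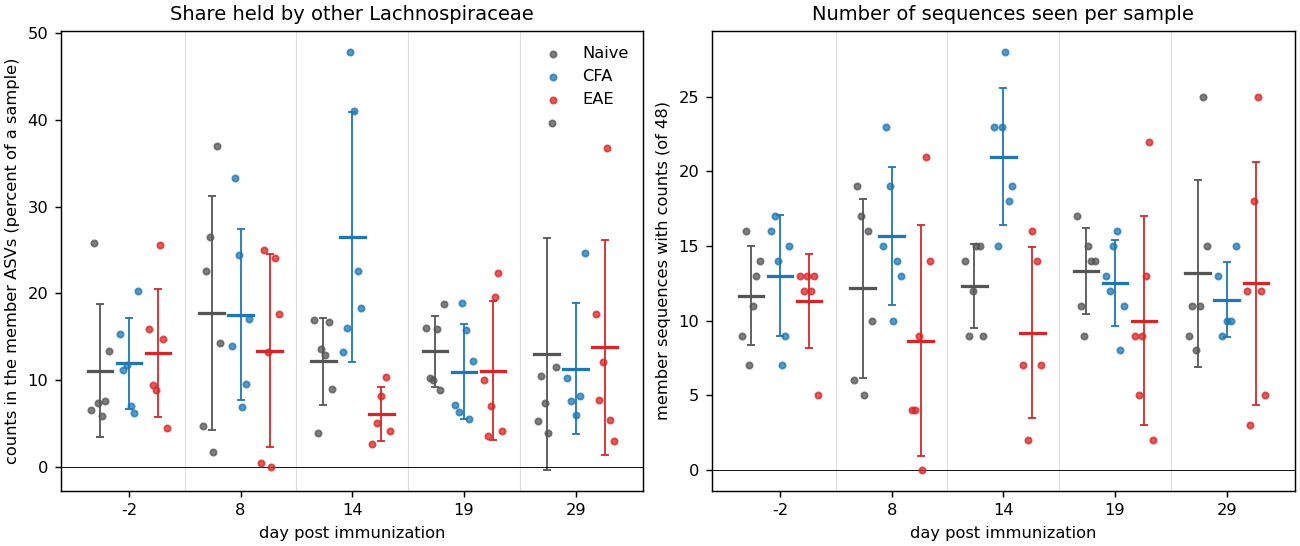
Share of counts held by the members, in percent (left), and number of member sequences found (right), per fecal sample against days post-immunization, with 1 point per mouse and lines with bars for the mean ± SD of naïve, CFA and EAE mice. At 14 dpi the 6 CFA samples lie between 13.2% and 47.8% and the 5 EAE samples between 2.67% and 10.4%.

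The whole family was tested, and EAE and CFA mice differed at 14 dpi. Lachnospiraceae held 12.5% ± 5.12 of counts in EAE mice at 14 dpi (4.94% to 18.4%, n = 5), 43.8% ± 15.9 in CFA mice (31.9% to 68.1%, n = 6) and 17.5% ± 5.53 in naïve mice (10.6% to 23.6%, n = 6). Between EAE and CFA mice the log2 fold change was -1.71 with a standard error of 0.68 (adjusted p = 0.0330, edgeR's quasi-likelihood test with Benjamini-Hochberg adjustment over 23 families), and a two-sided exact permutation test of the mean percent gave p = 0.00216, the smallest it can give. The edgeR call was lost without mouse 588 (log2 fold change -1.68), mouse 589 (-1.63) or mouse 595 (-1.54). EAE mice against naïve mice did not pass (log2 fold change -0.87, edgeR adjusted p = 0.385, exact permutation p = 0.162, adjusted 0.415). Neither did 14 dpi against -2 dpi within CFA mice (0.28, edgeR adjusted p = 0.999) or within EAE mice (-0.70, 0.520). CFA mice were 26.3 percentage points above naïve mice at 14 dpi (exact permutation p = 0.00216, adjusted over 23 families 0.0249), with no overlap between the groups. The edgeR test of the same comparison gave a log2 fold change of 0.84 with a standard error of 0.63 and an adjusted p of 0.468. On the other days the family's group means were 17.5% to 23.03%, except for CFA mice at 8 dpi with 33.0% ± 13.5.

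Members carried 16 genus names, described here from genera known for butyrate or pectin use, over acetogens and gas formers and names from an old Clostridium cluster, to genera known by a code. Genus values include the ASVs of the name that were seen in fewer samples. Between treatments, edgeR called 11 differences of members' genera over the 15 comparisons, and in each of them every mouse of one group was at 0. None of the 11 was between EAE and naïve mice, where 6.15% to 12.3% of all 65 genera were called from 8 to 29 dpi, where at most 3 of the members' genera had an unadjusted edgeR p under 0.05 on any of these days, and where DESeq2 called 3. Exact permutation tests of the mean percent, adjusted over 65 genera in each comparison, passed in 9 cases, of which only Acetatifactor at 19 dpi was also called by edgeR. Acetatifactor, Blautia, Anaerotignum and UCG-001 would each have no member ASV without a treatment that held their counts. For differences that rest on that treatment, only carriers and levels are given.

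Roseburia are motile butyrate producers that use starch, xylan and inulin. The genus had 36 member ASVs from 3 sequences and a mean of 3.39% over all samples, the second largest after NK4A136. At 14 dpi its 6 CFA samples lay between 5.09% and 21.2% (mean 9.89% ± 6.90), and its 6 naïve samples between 0 and 2.65% (mean 1.21% ± 1.34), with no overlap (exact permutation p = 0.00216, adjusted p = 0.0469, against an edgeR adjusted p of 0.596). EAE mice held 1.32% ± 1.74 of Roseburia at 14 dpi. Before immunization, at -2 dpi, Roseburia was at 4.48% ± 1.25 in CFA, 1.96% ± 2.78 in naïve and 2.34% ± 2.36 in EAE mice. In the exact permutation tests 4.62% of all 65 genera passed in CFA against naïve mice at 14 dpi, and 2 of the 16 genera of the members did.

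The other genus that passed there was Lachnospira, a pectin fermenter, which had 10 member ASVs from 1 sequence. It held 1.16% ± 0.437 in CFA mice at 14 dpi (0.696% to 1.75%) and 0.107% ± 0.120 in naïve mice (0 to 0.253%), with no overlap (exact permutation p = 0.00216, adjusted p = 0.0469). Only 1 of 5 EAE mice had counts of it, at 0.0832%, and EAE and CFA mice did not overlap (exact permutation p = 0.00216, adjusted p = 0.0201, edgeR adjusted p = 0.114), in a comparison where 3 of the members' 16 genera and 15.4% of all genera passed the permutation tests. At 29 dpi CFA mice held 1.15% ± 0.314 (0.649% to 1.39%, n = 5) and naïve mice 0.185% ± 0.209 (0 to 0.436%), again with no overlap (exact permutation p = 0.00216, adjusted p = 0.0469), where 4.62% of genera passed. Lachnospira was thus present in every CFA mouse from 14 dpi on, which held for no other treatment. Its level at -2 dpi was 0.505% ± 0.680 in CFA, 0.372% ± 0.579 in naïve and 0.561% ± 0.653 in EAE mice.

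Acetatifactor, known from mouse intestine and named for forming acetate, had 5 member ASVs from 2 sequences. At 19 dpi it was present in 6 of 6 naïve mice, between 0.291% and 3.34% (mean 1.31% ± 1.44), and in 0 of 6 CFA mice. Without the naïve samples the genus would have no member ASV, so no p-value is given for this difference. In this comparison 7.69% of all genera were called by edgeR and 6.15% passed the permutation tests. EAE mice at 19 dpi held 0.362% ± 0.465 with 3 of 6 mice above 0, and edgeR called them above CFA mice (adjusted p = 0.0290, exact permutation p = 0.182, with 10.8% of genera called). The level of CFA mice was not at 0 throughout, with 4 of 6 mice above 0 at 14 dpi and 3 of 5 at 29 dpi. Acetatifactor at -2 dpi was at 0.102% ± 0.249 in naïve, 0.386% ± 0.635 in CFA and 0.0752% ± 0.184 in EAE mice.

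Among acetogens and gas formers, Blautia, which forms acetate from hydrogen and carbon dioxide, was rare, with 1 member ASV and a mean of 0.0760%. At 8 dpi it was at 0 in all 6 CFA mice and present in 3 of 6 naïve and 3 of 6 EAE mice. Blautia would have no member ASV without the naïve or without the EAE samples, so no p-value is given. The edgeR test called both differences. These calls stood beside 21.5% of genera called in CFA against naïve mice and 26.2% in EAE against CFA mice at 8 dpi, so the shares for the members' genera, 3 of 16 in both, were not above the background.

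Dorea, which releases hydrogen and carbon dioxide when it ferments sugars, had 21 member ASVs from 5 sequences. Naïve mice at 19 dpi held 2.85% ± 0.631 (2.05% to 3.54%) and CFA mice 0.563% ± 0.433 (0 to 1.16%), with no overlap (exact permutation p = 0.00216, adjusted p = 0.0352, edgeR adjusted p = 0.633). EAE mice at 19 dpi were spread from 0 to 3.67% around a mean of 1.54% and overlapped with both. Before immunization, at -2 dpi, Dorea was at 1.59% ± 2.01 in naïve, 0.367% ± 0.635 in CFA and 1.16% ± 1.06 in EAE mice.

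Of the names taken from the old Clostridium clusters, Hungatella had 10 member ASVs, all of 1 sequence, Lachnoclostridium had 5 from 3 sequences, and Anaerotignum, which includes propionate producers, had 3 from 2 sequences. At 14 dpi Hungatella was at 1.44% ± 0.590 in CFA mice (0.637% to 2.19%) and at 0.217% ± 0.305 in EAE mice (0 to 0.645%), which overlapped with the lowest CFA mouse (exact permutation p = 0.00649, adjusted p = 0.0422, edgeR adjusted p = 0.660). A gap of this direction was there before immunization. Hungatella at -2 dpi was at 1.11% ± 1.21 in CFA mice (4 of 6 above 0) and 0.203% ± 0.498 in EAE mice (1 of 6). Anaerotignum was at 0 in all 5 EAE mice at 14 dpi and present in 5 of 6 CFA mice with a mean of 0.624%. It was called by edgeR, with 13.8% of genera called there. Without the CFA samples Anaerotignum would have no member ASV, so no p-value is given. Lachnoclostridium was at 0 in all 5 CFA mice at 29 dpi and present in 5 of 6 naïve mice with a mean of 0.820% (edgeR adjusted p = 0.0440, exact permutation p = 0.0411, adjusted 0.263), with 7.69% of genera called. A further name, Lachnospiraceae-Clostridium XlVa, had 5 member ASVs, all of which shared their sequence with ASVs of other names, and held a mean of 0.626%.

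Several genera were known by a code alone. The genus named Lachnospiraceae_NK4A136-Clostridium XlVa, here NK4A136, held 56 member ASVs from 15 sequences and a mean of 4.96%. Its level at -2 dpi was 4.06% ± 2.89 in EAE, 3.47% ± 3.97 in naïve and 4.01% ± 2.34 in CFA mice. At 14 dpi it was at 1.56% ± 1.35 in EAE mice (0 to 2.92%, n = 5), below naïve mice at 4.43% ± 0.845 (3.61% to 5.65%) and CFA mice at 9.61% ± 4.06 (4.94% to 14.7%), and EAE mice overlapped with neither group. The exact permutation test gave p = 0.00216 against naïve (adjusted p = 0.0176, with 13.8% of genera passing) and p = 0.00649 against CFA mice (adjusted p = 0.0422), whereas edgeR gave adjusted p-values of 0.383 and 0.149. The remaining names were NK4A136/Hungatella with 27 member ASVs, ASVs of the family without a genus with 18, Coprococcus/Eubacterium_F, here Eubacterium_F, with 14, NK4A136/COE1 with 9, FCS020 with 4 and UCG-001 with 2. Their means were between 0.174% and 2.06%. UCG-001 was called lower in CFA than in naïve mice at 8 dpi, where it was in 1 of 6 naïve mice. It was also called lower at 14 dpi, where it was in 3 of 6, with 9.23% of genera called. UCG-001 would have no member ASV without the naïve or without the EAE samples, so no p-value is given.

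Names and sequences did not match one to one. ASVs with the same sequence between the primers carried more than 1 genus name in 12 of the 48 sequences. Hungatella sequence 1, for example, held ASVs named Hungatella and NK4A136/Hungatella, and UCG-001 sequence 1 held ASVs named Roseburia. A difference between genus names can therefore be a difference in primer variants, and the sequences between the primers are described in the following.

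The 5 sequences with the highest mean percent were Roseburia sequence 1 with 2.32%, Hungatella sequence 1 with 1.67%, NK4A136 sequence 1 with 1.496%, sequence 1 of the unnamed Lachnospiraceae with 1.46% and NK4A136 sequence 2 with 0.975%. Together they held 44.3% of the counts of member sequences. Roseburia sequence 1 was present in 2 to 6 mice of each group, with a group mean between 1.20% and 5.21% and single mice of up to 17.0%. The unnamed sequence 1 was found in 59 of 88 samples, more than any other, and was rarest in EAE mice at 19 dpi, where 1 of 6 mice had it at 0.411%. Of the 5, only NK4A136 sequence 2 was called by edgeR in a comparison between treatments. Of all 48 sequences, 34 (70.8%) were seen in samples of all 3 treatments, beside 54.7% of the 203 sequences tested.

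**Figure D2:**
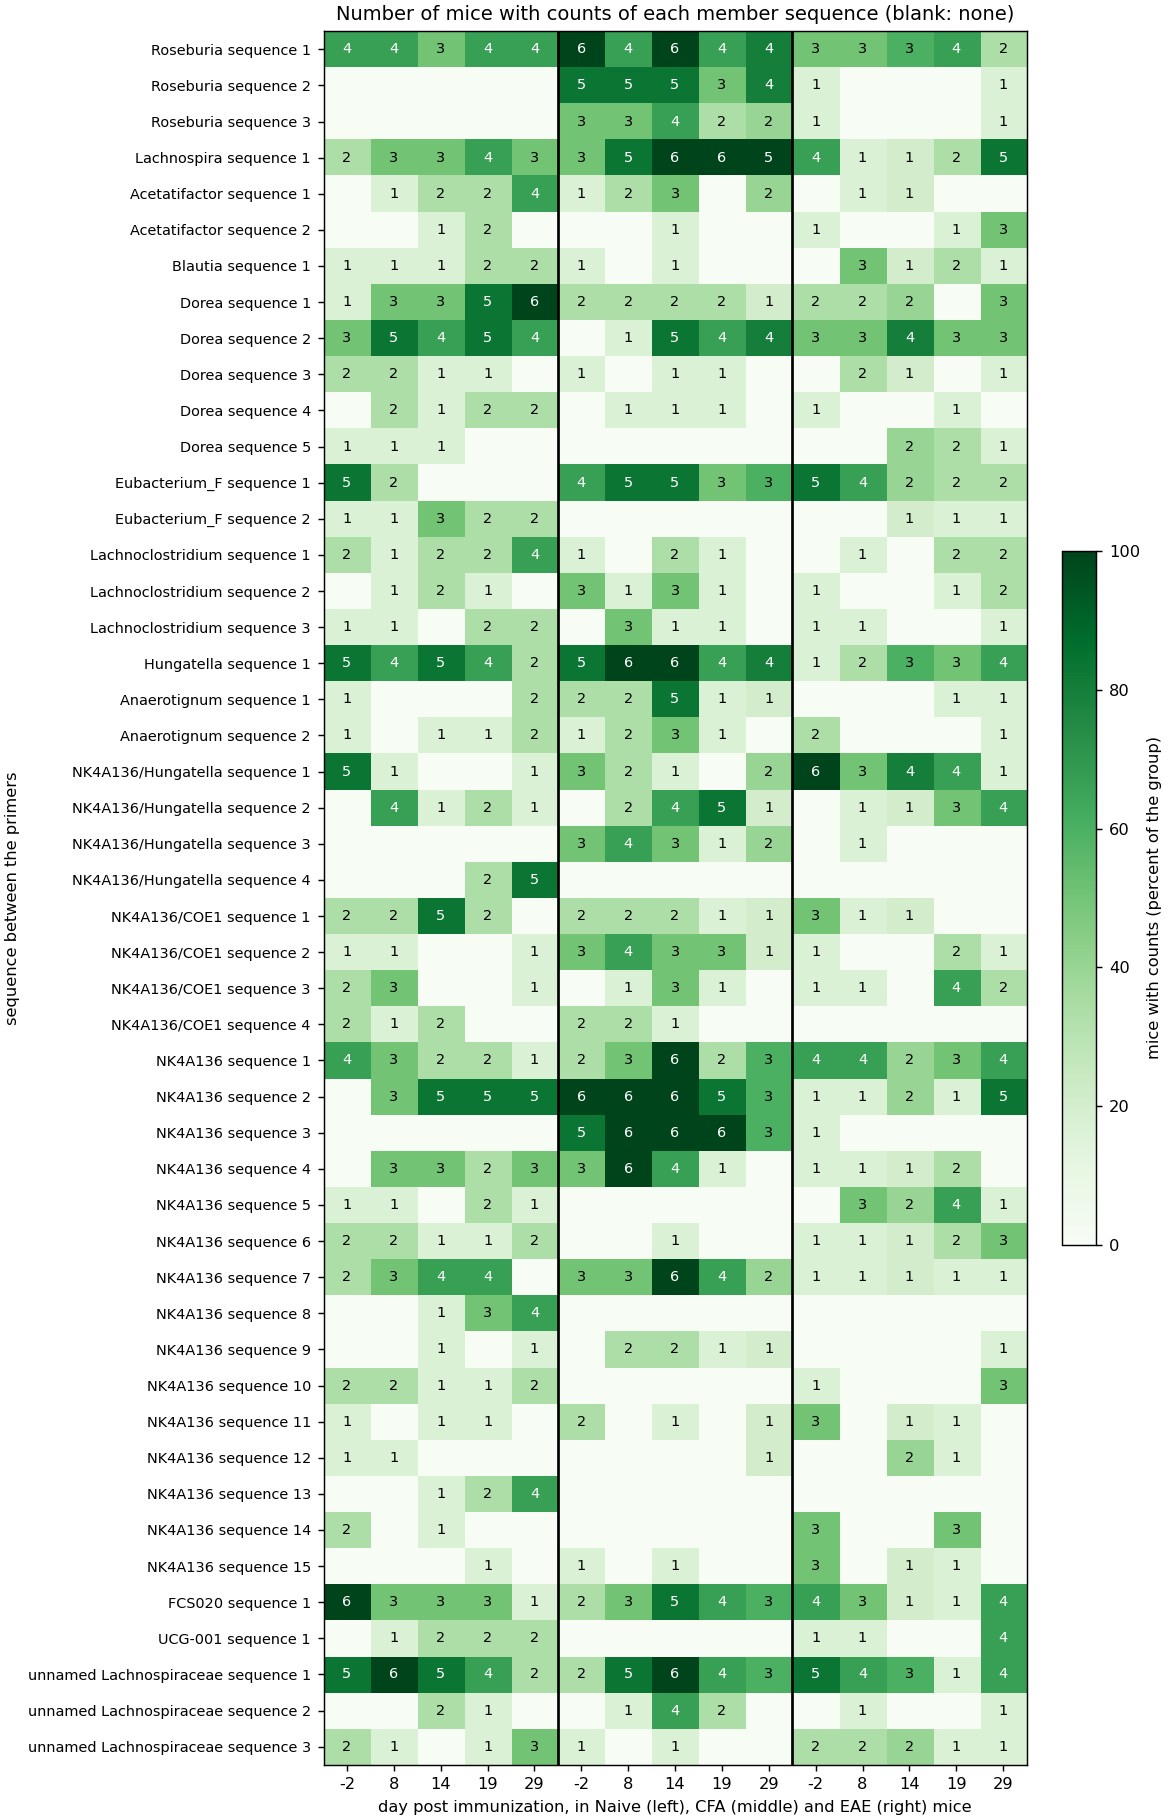
Number of mice with counts of each of the 48 member sequences (vertical axis, by genus) in the 15 groups of treatment and day (horizontal axis), with the number printed and the colour giving the percent of mice, out of 6 per group and 5 for EAE at 14 dpi and CFA at 29 dpi. NK4A136 sequence 3 and Roseburia sequence 2 fill the CFA columns, with 26 and 22 of 29 samples, and are empty in all naïve columns.

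Calls of single sequences came with one group at 0 throughout. Over the 15 comparisons between treatments, edgeR called 69 differences of 23 sequences, and in all 69 every mouse of one group was at 0. In 27 of the 69 the other group had counts in only 1 or 2 mice, and in 16 it had counts in 5 or 6. An exact permutation test of the mean percent gave p under 0.05 in 18 of the 69 calls, and in none of them after adjustment over the 203 sequences tested. With 6 mice per group and one group at 0, this p is set by the number of mice with counts alone. It is therefore no separate check on these calls. The smallest p it can give is 0.00216, so a pass after adjustment needs several sequences at this value. No fold change is given for such calls, because a fold against a group at 0 has no finite value. Each is described by the number of mice with counts and by its level. The rule of at least 3 samples bears on these calls. Of the 48 sequences, 33 would have no member ASV if the samples of some single treatment were left out, and in 6 of them, NK4A136 sequences 3 and 8 among these, every member ASV was seen in 1 treatment. In 43 of the 69 calls, of 15 sequences, the sequence was a member only through the treatment that had its counts. Such a sequence had to differ, so it is described by its carriers and levels with no p-value, and nothing is read from the share of members called.

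A set of sequences was found mostly in CFA mice and was in place before immunization. NK4A136 sequence 3 was present in 26 of 29 CFA samples, in 0 of 30 naïve samples and in 1 of 29 EAE samples. Of the 11 ASVs with this sequence 3 were members. The others counted here include ASVs named Stomatobaculum, a genus set aside, so its levels are not those of members alone. Roseburia sequence 2 was present in 22 CFA, 0 naïve and 2 EAE samples, and Roseburia sequence 3 in 14 CFA, 0 naïve and 2 EAE samples. NK4A136/Hungatella sequence 3, which was picked out after its values were seen, was present in 13 CFA, 0 naïve and 1 EAE sample. Every one of the 29 CFA samples held at least 1 of the first 3 sequences, including all 6 samples of -2 dpi.

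In CFA mice NK4A136 sequence 3 was at 0 to 3.09% with a median of 1.21% at -2 dpi, where 5 of 6 mice had it. At 8 dpi it was at 1.03% to 4.42% (median 1.24%), at 14 dpi at 1.28% to 4.43% (median 2.55%) and at 19 dpi at 1.02% to 4.27% (median 1.86%), with 6 of 6 mice above 0 on each day. At 29 dpi 3 of 5 mice had it, with a median of 2.45%. On 8, 14 and 19 dpi its CFA samples thus overlapped with no naïve sample and no EAE sample. This sequence and Roseburia sequences 2 and 3 were members only through CFA mice, so no test is given for them here.

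Roseburia sequence 2 was at 0 to 2.00% in CFA mice at -2 dpi (median 1.79%), and its mean was 1.70% ± 0.901, 2.42% ± 1.91, 0.960% ± 1.15 and 1.21% ± 0.981 on days 8, 14, 19 and 29. It was present in 5, 5, 5 and 3 of 6 CFA mice from -2 to 19 dpi and in 4 of 5 at 29 dpi. Roseburia sequence 3 had means of 0.742% ± 0.914, 1.70% ± 1.96, 2.27% ± 2.18, 0.347% ± 0.632 and 0.375% ± 0.515 over the same days, in 3, 3, 4, 2 and 2 mice. The 4 sequences together held 3.98% ± 2.33, 5.72% ± 3.44, 7.95% ± 3.48, 3.54% ± 1.90 and 3.54% ± 2.39 of counts in CFA mice on the 5 days. It was above 0 in every CFA sample, with a lowest value of 0.990%.

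The EAE samples with any of these 4 sequences came from a single animal. Mouse 550 held 3 of them at -2 dpi, with a sum of 6.12%, and 1 at 8 dpi at 0.255%. Mouse 588 held 2 of them at 29 dpi, with a sum of 4.81%. The deposited sample table gave mouse 550 and mouse 588 as the same animal. All other EAE samples, 26 of 29, were at 0 for all 4. Since these sequences differed between CFA and naïve mice before any treatment, and mice of a cage shared a treatment, the part of cage, animal of origin and adjuvant in this difference was not tested.

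In CFA against naïve mice, 6 of 48 member sequences were called at -2 dpi where 5.42% of all 203 sequences were called. Of these, 5 were higher and 1 lower, beside 3.45% and 1.97% of all sequences. At 8 dpi 3 were called, all higher (3.94% of all sequences in either direction and 1.97% higher), and these were NK4A136 sequence 3 and Roseburia sequences 2 and 3. At 14 dpi 7 were called (8.37% of all sequences), 5 higher (3.45%) and 2 lower (4.93%). At 19 dpi 10 were called (12.8%), 5 higher (5.91%) and 5 lower (6.90%), and at 29 dpi 3 (2.46%), all of them higher (1.97%). At 29 dpi 1 call was left without mouse 543, 0 without mouse 547 and 0 with no filter on rare taxa. NK4A136 sequence 2 was called at -2 dpi only, with 6 of 6 CFA mice between 1.18% and 2.68% and 0 of 6 naïve mice (adjusted p = 0.0167, exact permutation p = 0.00216).

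**Figure D3:**
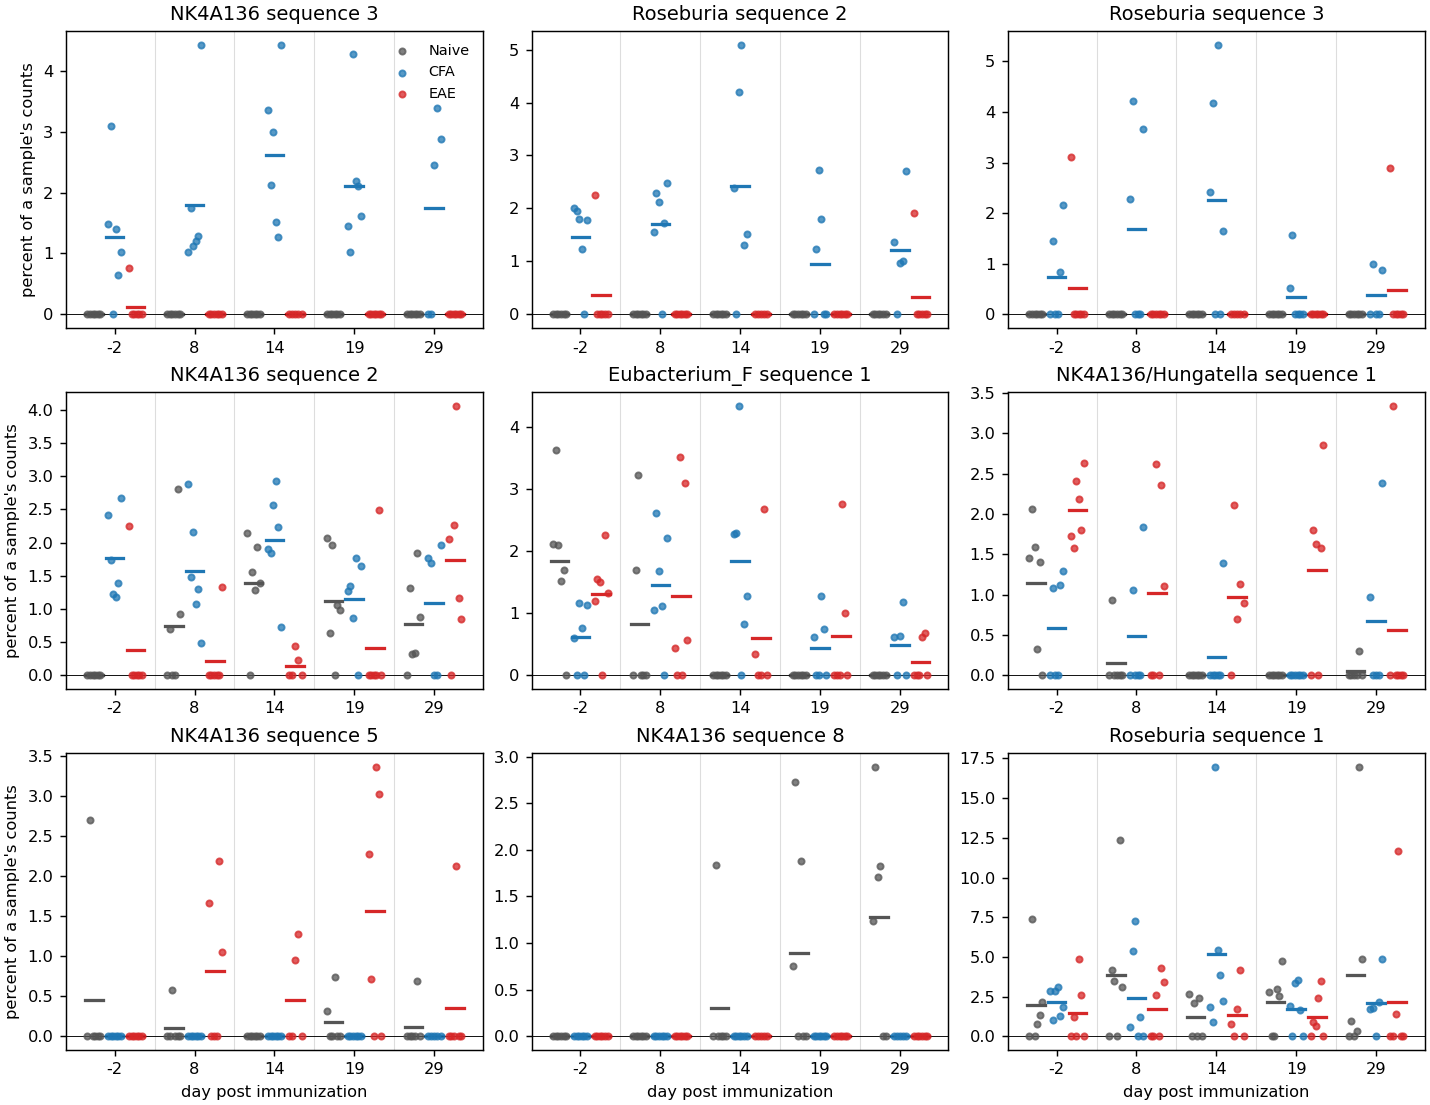
Percent of counts (vertical axis, linear) of 9 member sequences in each fecal sample against days post-immunization, with 1 point per mouse and a line for the mean of naïve, CFA and EAE mice. NK4A136 sequence 3 lies between 1.02% and 4.43% in all CFA mice at 8, 14 and 19 dpi and at 0 in the naïve and EAE mice of these days.

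Eubacterium_F sequence 1 and sequence 2, which differ by 4 bases, moved apart between treatments. Eubacterium_F sequence 1 was present in 5 of 6 naïve mice at -2 dpi, with a median of 1.90% and a highest value of 3.63%, in 2 at 8 dpi and in 0 of 6 at 14, 19 and 29 dpi. In CFA mice it was present in 4, 5, 5 and 3 of 6 mice and 3 of 5 mice over the days, with a median of 1.78% at 14 dpi. CFA mice were called higher at 14 dpi (adjusted p = 0.0266, exact permutation p = 0.0152), 19 dpi (0.0320 and 0.182) and 29 dpi (0.0482 and 0.0606), where the call was lost without mouse 543, 545, 546 or 547. EAE mice, with 2 mice above 0 on each of these days, were called higher than naïve mice as well (adjusted p = 0.0411, 0.0263 and 0.0339), with exact permutation p-values of 0.182, 0.455 and 0.455. The call at 14 dpi was lost without mouse 593 (adjusted p = 0.110) and that at 29 dpi without the animal numbered 550 and then 588 (0.0549). Eubacterium_F sequence 2 was absent from all 29 CFA samples and present in 9 of 30 naïve samples, 3 of 6 at 14 dpi and 2 of 6 at 19 dpi, and was a member only through naïve mice.

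Other sequences were found in naïve mice alone, and late. NK4A136 sequence 8 was present in 0, 0, 1, 3 and 4 of 6 naïve mice from -2 to 29 dpi and in no CFA or EAE sample, with 0 to 2.89% and a median of 1.47% at 29 dpi. It was a member through naïve mice alone, so no test is given. NK4A136 sequence 13 and NK4A136/Hungatella sequence 4, picked out after their values were seen, were also found in naïve mice alone, the latter in 2 of 6 mice at 19 dpi and 5 of 6 at 29 dpi. These 3 of 48 sequences (6.25%) compare with 11 of all 203 (5.42%) that were seen in naïve samples alone, so the members were near the background. No member sequence was seen in CFA samples alone or in EAE samples alone, beside 8 (3.94%) and 11 (5.42%) of all 203.

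In EAE against naïve mice, 0 of 48 member sequences were called at -2 dpi, where 0.493% of all 203 sequences were called, and 0 at 8 dpi, where 2.96% were. The count of members at an unadjusted edgeR p under 0.05 was 19 and 10 on these days, and DESeq2 called 19 and 10. At 14 dpi 2 were called (3.45% of all sequences), both higher (2.96%), with 1 left without mouse 589 or 595, 0 without mouse 593 and 19 called by DESeq2. At 19 dpi 6 were called (6.90%), 2 higher and 4 lower (3.45% for each direction), and at 29 dpi 13 (36.9%), 7 higher (16.3%) and 6 lower (20.7%). All 13 calls at 29 dpi were lost when the animal numbered 550 and then 588 was left out, and those of Roseburia sequences 2 and 3 rested on this mouse alone, at 1.91% and 2.89%, with an exact permutation p of 1. At 19 dpi 3 calls were made in place of 6 without mouse 595, and also without mouse 588.

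NK4A136/Hungatella sequence 1 was the sequence called higher in EAE than in naïve mice with the most carriers. It was present in 6 of 6 EAE mice at -2 dpi, between 1.58% and 2.64%, in 3 of 6 at 8 dpi, in 4 of 5 at 14 dpi (0 to 2.11%, median 0.895%), in 4 of 6 at 19 dpi (0 to 2.86%, median 1.60%) and in 1 of 6 at 29 dpi. In naïve mice it was present in 5 of 6 at -2 dpi and in 1, 0, 0 and 1 afterwards. EAE and naïve mice differed at 14 dpi (adjusted p = 0.0413, exact permutation p = 0.0152, adjusted over 203 sequences 0.256) and 19 dpi (0.0263 and 0.0606). The call at 14 dpi was lost without mouse 589, 593 or 595 (adjusted p = 0.0520, 0.0661 and 0.0535). Naïve mice thus went from 5 of 6 with counts to 0 of 6, while the mean of EAE mice was 2.06% ± 0.420 at -2 dpi and 1.31% ± 1.12 at 19 dpi. CFA mice at 19 dpi were also at 0 in 6 of 6, below EAE mice (adjusted p = 0.0286, exact permutation p = 0.0606).

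Acetatifactor sequence 1 and Dorea sequence 1 were at 0 in EAE mice at 19 dpi. Acetatifactor sequence 1 was at 0 in all EAE mice at 19 and 29 dpi and present in 2 and 4 of 6 naïve mice, at up to 3.34% and 1.66%, and it was a member only through naïve mice. Dorea sequence 1, picked out for its counts after its values were seen, was in 5 of 6 naïve mice at 19 dpi (median 1.54%) and in 0 of 6 EAE mice (adjusted p = 0.0263, exact permutation p = 0.0152).

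In EAE against CFA mice, 0 of 48 member sequences were called at -2 dpi (0.493% of all sequences), with 16 at an unadjusted edgeR p under 0.05 and 16 called by DESeq2. At 8 dpi 5 were called (7.88%), 2 higher (4.93%) and 3 lower (2.96%) in EAE mice, and at 14 dpi 4 (8.87%), 1 higher (6.40%) and 3 lower (2.46%). At 19 dpi 9 were called (14.8%), 3 higher (8.87%) and 6 lower (5.91%), which fell to 5 without mouse 595, to 4 without mouse 588 and to 4 with no filter on rare taxa, beside 23 called by DESeq2. At 29 dpi 1 was called lower and 0 higher (1.48% in either direction, 0.493% lower and 0.985% higher). These comparisons share their CFA samples with those of CFA against naïve mice. The sequences called lower at 8, 14 and 19 dpi included NK4A136 sequence 3 and Roseburia sequences 2 and 3 on each day, and NK4A136 sequence 3 was the one call at 29 dpi, which was lost without mouse 545, 546 or 547 and without the animal numbered 550 and then 588. None of the 4 calls at 14 dpi was made when any 1 of the 5 EAE mice was left out.

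NK4A136 sequence 5 was the sequence called higher in EAE than in CFA mice on 3 days. It was absent from all 29 CFA samples, and present in 0, 3, 2, 4 and 1 EAE mice and in 1, 1, 0, 2 and 1 naïve mice over the days. In EAE mice it was at 0 to 2.19% with a median of 0.524% at 8 dpi, at 0 to 1.28% at 14 dpi, and at 0 to 3.36% with a median of 1.49% at 19 dpi. The adjusted p was 0.0462, 0.0464 and 0.0346 on these days, and the exact permutation p was 0.182, 0.182 and 0.0606. The call at 8 dpi was lost without the animal numbered 550 and then 588, and that at 14 dpi without any 1 of the 5 EAE mice. It was called in no comparison of EAE with naïve mice on the same day, whereas its change since -2 dpi was called between them, as listed further below.

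Differences that did not rest on a group at 0 appeared in the permutation tests alone. At 14 dpi Lachnospira sequence 1 was at 0.696% to 1.75% in CFA mice and above 0 in 1 of 5 EAE mice at 0.0832%, and NK4A136 sequence 7 was at 0.650% to 1.65% in CFA mice and above 0 in 1 EAE mouse at 0.391%. Both passed the exact permutation test after adjustment over 203 sequences (p = 0.00216, adjusted p = 0.0488), at which 4.43% of all sequences passed, and neither was called by edgeR (adjusted p = 0.161 and 0.560).

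Within treatments, edgeR made calls of members against -2 dpi in naïve mice. At 14 and 19 dpi the same 3 member sequences were called (1.97% of all sequences on both days, with 0.985% higher and 0.985% lower), and 0 at 8 and 29 dpi (0.00%), with 11 and 19 at an unadjusted edgeR p under 0.05. Eubacterium_F sequence 1 went from 5 of 6 mice to 0 (adjusted p = 0.0426 at 14 dpi and 0.0367 at 19 dpi), and NK4A136/Hungatella sequence 1 from 5 of 6 to 0 (0.0469 and 0.0395). NK4A136 sequence 2 went the other way, from 0 of 6 mice at -2 dpi and 3 of 6 at 8 dpi to 5 of 6 on each later day, with a median of 1.47% at 14 dpi (0.0426 and 0.0367). With the mouse number as a block, edgeR called 3 member sequences in naïve mice and 0 in CFA and EAE mice. For EAE mice this fit covered 8 against -2 dpi only, since their numbers change later. Without a block and over all days, DESeq2 called 31, 22 and 32. With no filter on rare taxa, edgeR called 0 in naïve mice. Naïve mice received no treatment. In CFA mice 0 members were called by edgeR on any day, where 0.00% to 1.48% of all sequences were called and 9 to 14 members had an unadjusted p under 0.05. In EAE mice 0 were called, where 0.00% to 0.985% of all sequences were called and 17 to 20 members had an unadjusted p under 0.05.

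Sequences that differed by a few bases often did not share a sample. Of the 1128 pairs of member sequences, 9 had at most 6 base differences, and 5 of these 9 (55.6%) were never found in the same sample. Among the 812 other pairs at least as common as the least common of the 9, judged by the product of their shares of samples, 36 (4.43%) were never found together. This product, as samples expected to hold both, was 2.16 to 10.5 in the 9 pairs. No upper limit was set for the 812, so they include more common pairs, and the percentages are not matched for commonness. Dorea sequence 1 and Dorea sequence 3, which differ by 1 base, were found in 36 and 13 samples and in 0 together, where independent presence would give 5.32. Eubacterium_F sequences 1 and 2 were found in 42 and 12 samples and in 0 together (5.73), and NK4A136 sequences 4 and 11, with 2 differences, in 30 and 12 and in 0 together (4.09). NK4A136/COE1 sequence 4 was never found with sequence 2, at 1 difference (21 and 10 samples), or with sequence 3, at 2 differences (19 and 10 samples). Samples of the same mouse are not independent, and this pattern was noted after the values were seen and was not tested.

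The other close pairs did share samples. NK4A136 sequence 10 was found in 12 samples, all of which held NK4A136 sequence 6 at 1 difference, and 12 of the 16 samples with Roseburia sequence 3 also held Roseburia sequence 1 at 1 difference. NK4A136/COE1 sequences 2 and 3, at 1 difference, shared 7 samples, and Anaerotignum sequences 1 and 2, at 4 differences, shared 5. Closeness alone therefore did not separate pairs that occurred together from pairs that did not.

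**Figure D4:**
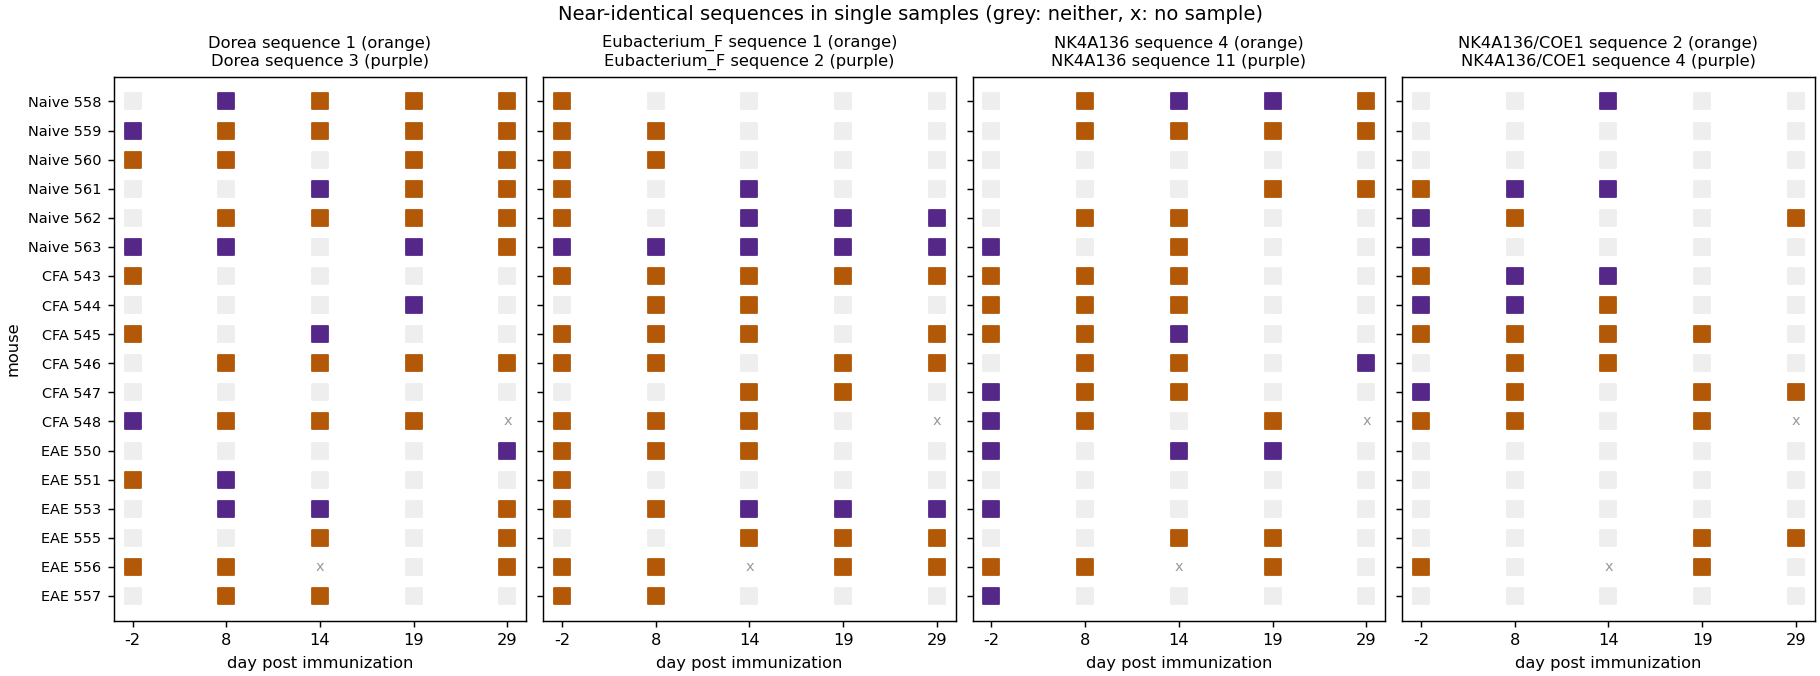
Presence of 4 pairs of close member sequences in each mouse (rows, by treatment, with EAE numbers joined as in the deposited sample table) at each day post-immunization (columns). Orange squares mark the first sequence of a pair, purple squares the second and grey squares neither, and an x marks a missing sample. No sample holds both sequences of a pair.

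Some animals held both sequences of such a pair, on different days. For Dorea, 8 animals held both sequences on different days, of which 6 held sequence 3 before sequence 1 and 2 the reverse. For Eubacterium_F, 3 animals held both, and in all 3 sequence 1 came before sequence 2. For NK4A136 sequences 4 and 11, 6 animals held both, 2 with sequence 4 first, 3 with sequence 11 first and 1 back and forth. For NK4A136/COE1 sequences 2 and 4, 5 animals held both, 2 with sequence 2 first and 3 with sequence 4 first.

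Turnover of the members was followed as the share of member sequences that a mouse held at both of 2 consecutive sampling days, out of those it held at either. In naïve mice 31.8% ± 15.4 of sequences were shared (SD over 24 pairs of days), in CFA mice 43.1% ± 13.5 (23 pairs) and in EAE mice 21.7% ± 13.7 (17 pairs, without 8 to 14 dpi, where the numbers change). Over all treatments this was 33.1% ± 16.4, close to the 29.6% ± 15.3 shared by different mice of a group on the same day and above the 20.6% ± 12.5 shared by mice of different treatments on the same day. The share of sequences that a mouse kept until its next sampling was thus near the share it had in common with another mouse of its group. For ASVs, which include the primer variants, the shares were 5.12% ± 6.53, 5.43% ± 5.40 and 3.89% ± 8.43 in naïve, CFA and EAE mice.

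The shares also varied with the days. CFA mice shared most from 8 to 14 dpi, with 50.2% ± 12.6, and naïve mice least from -2 to 8 dpi, with 23.6% ± 9.33. EAE mice shared 16.0% ± 14.6 from -2 to 8 dpi, 30.5% ± 8.57 from 14 to 19 dpi (n = 5) and 20.0% ± 14.6 from 19 to 29 dpi. The Bray-Curtis dissimilarity of the members' own counts, where 0 stands for the same makeup and 1 for none in common, had means of 0.579 ± 0.218 in naïve, 0.483 ± 0.113 in CFA and 0.656 ± 0.181 in EAE mice. The shares of sequences kept by single mice overlapped between treatments, at 3.45% to 66.7% in naïve, 21.1% to 68.0% in CFA and 0 to 41.7% in EAE mice, and no test was made. With every sample thinned to 9202 reads, each treatment's mean share of sequences over all days stayed within 1 SD of the value above.

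**Figure D5:**
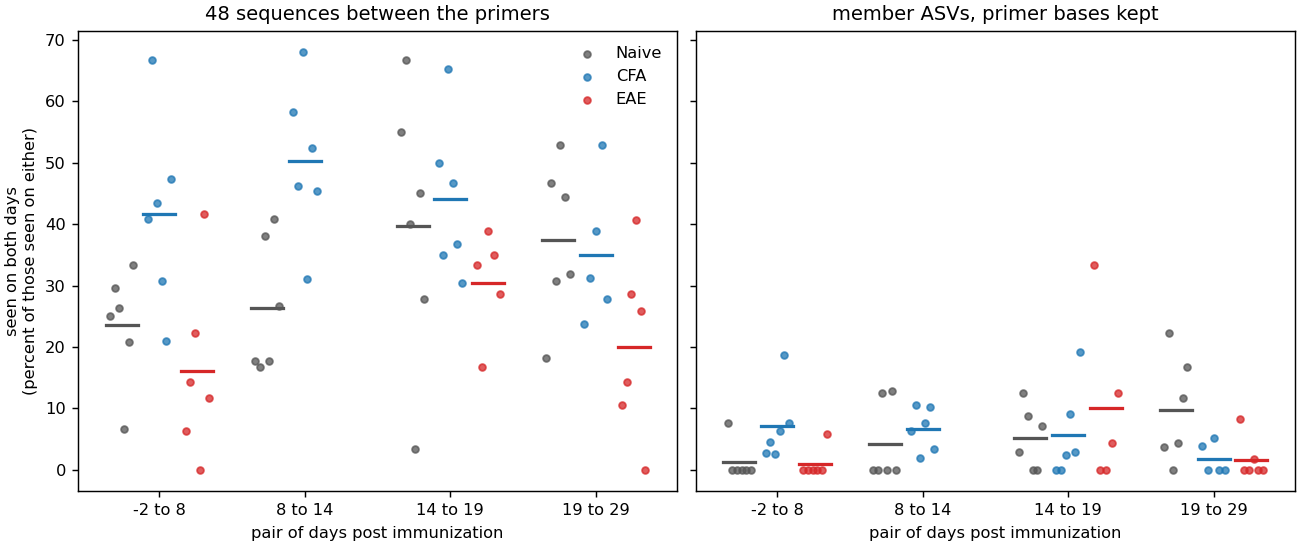
Percent of member sequences (left) and of member ASVs (right) that were found in a mouse at both of 2 consecutive sampling days, out of those found at either, with 1 point per mouse and lines for the mean of naïve, CFA and EAE mice. Sequences are shared at means of 21.7% to 43.1% per treatment and ASVs at 3.89% to 5.43%.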

How the data were processed

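Fecal DNA was extracted with phenol and chloroform, and part of the bacterial 16S gene, from V3 to V4, was amplified and sequenced. The authors resolved the reads into ASVs with DADA2, whose version is not given in the sources used here, and named the ASVs from several reference databases with curation by hand. The deposited table holds raw counts per ASV and sample, neither rarefied nor scaled.

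Samples were grouped by treatment and day from the labels. One CFA sample at 29 dpi (mouse 548) had no counts and was not used, and water controls were not analysed here. The members and lists were chosen with earlier results of these data known. Counts of ASVs that shared a sequence between the primers were summed. Genera, families and sequences seen in at least 3 samples were tested with edgeR 4.0.16 (quasi-likelihood test, R 4.3.3) in a single fit over the 15 groups, with normalization factors from genus counts, and p-values were adjusted by Benjamini-Hochberg within a comparison over all features tested, at a threshold of 0.05. A call is a feature past this threshold. On simulated counts as variable as these, the test also made false calls, so the number of mice with counts and a two-sided exact permutation test of the mean percent are given beside the calls. The permutation test went through all ways to split the mice of a comparison. Percent values are shares of a sample's total count.

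The sequences named by rule were the 5 of highest mean percent and, per pair of treatments, up to 8 of those called on at least 2 days from 8 to 29 dpi, ranked by the mean size of their log2 fold changes whatever the sign, and every genus of a member was named. Others are said to be picked out after their values were seen. Alternatives were DESeq2 1.42.0, total counts in place of normalization factors, no filter, single ASVs, left-out mice, and the mouse number as a block. The labels give the same mouse number over days within naïve and CFA mice, and the mean correlation of a mouse's deviations from its group means was -0.0573 to 0.194 in them. For EAE numbers, with 2 or 3 samples each, it was -0.0864 to 0.221.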

Additional observations from a re-analysis of the deposited data

Results flagged for a closer look

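Single mice stood far from the others of their group in 49 cases, by Dixon's ratio of the gap to the range over 162 tests. In 29 of the 49 the mouse was the only one of its group with counts of the sequence, which alone sets the ratio to 1. The rate of about 1 in 20 that chance gives holds for values that are not tied at 0, so the number of cases is not compared with it.

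Among naïve mice, mouse 562 at 29 dpi held 39.6% of members (next 11.5%), with Roseburia sequence 1 at 17.0%, Hungatella sequence 1 at 5.22%, unnamed sequence 1 at 5.18%, NK4A136 sequence 1 at 1.90%, NK4A136 sequence 5 at 0.685% and NK4A136/Hungatella sequence 1 at 0.307%. The same mouse at 8 dpi had Roseburia sequence 1 at 12.4%, NK4A136 sequence 2 at 2.80% and Acetatifactor sequence 1 at 0.563%. Mouse 559 stood apart at -2 dpi with Roseburia sequence 1 at 7.37% and NK4A136 sequence 5 at 2.70%, at 8 dpi with NK4A136/Hungatella sequence 1 at 0.928%, and at 14 dpi with NK4A136 sequence 8 at 1.84%. Mouse 563 alone held Eubacterium_F sequence 2 at -2 dpi (2.56%) and 8 dpi (1.15%), and mouse 560 alone held NK4A136 sequence 5 at 8 dpi (0.582%).

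Among CFA mice, mouse 547 held 24.6% of members at 29 dpi (next 10.3%) and mouse 545 held Roseburia sequence 1 at 17.0% at 14 dpi and NK4A136 sequence 3 at 4.27% at 19 dpi. At 8 dpi mouse 544 had Hungatella sequence 1 at 3.45%, mouse 548 had NK4A136 sequence 3 at 4.42%, and mouse 546 was the only one at 0 for Roseburia sequence 2. Further values were Acetatifactor sequence 1 at 0.664% in mouse 543 at -2 dpi, NK4A136/Hungatella sequence 1 at 1.39% in mouse 548 at 14 dpi and Roseburia sequence 3 at 1.57% in mouse 544 at 19 dpi.

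Among EAE mice, mouse 550 at -2 dpi alone held NK4A136 sequence 2 (2.24%), NK4A136 sequence 3 (0.765%), Roseburia sequence 2 (2.25%) and Roseburia sequence 3 (3.11%), and mouse 588, the same animal, alone held Roseburia sequence 2 (1.91%) and Roseburia sequence 3 (2.89%) at 29 dpi and Acetatifactor sequence 1 at 14 dpi (0.100%). Mouse 551 at 8 dpi had NK4A136 sequence 1 at 22.0% (next 3.13%) and unnamed sequence 1 at 11.6%. Mouse 593 had Eubacterium_F sequence 1 at 2.69% at 14 dpi and 2.77% at 19 dpi, and at 29 dpi Roseburia sequence 1 at 11.7%, unnamed sequence 1 at 4.91% and NK4A136 sequence 5 at 2.13%. Mouse 591 alone held Eubacterium_F sequence 2 at 14 dpi (1.34%), 19 dpi (1.89%) and 29 dpi (0.901%). Mouse 594 alone held unnamed sequence 1 (0.411%) and NK4A136 sequence 2 (2.49%) at 19 dpi. The last values were Hungatella sequence 1 at 2.58% in mouse 555 at -2 dpi, NK4A136 sequence 2 at 1.33% in mouse 557 and Acetatifactor sequence 1 at 0.595% in mouse 556 at 8 dpi, and NK4A136/Hungatella sequence 1 at 3.34% in mouse 589 at 29 dpi.

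The change since -2 dpi differed between treatments for some named sequences (edgeR interaction contrasts with Benjamini-Hochberg adjustment over 203 sequences, added after the data were seen). Between EAE and naïve mice this held for NK4A136 sequence 2 at 8, 14, 19 and 29 dpi (adjusted p = 0.0215, 0.0162, 0.0140 and 0.0461), Eubacterium_F sequence 1 at 14, 19 and 29 dpi (0.0258, 0.0227 and 0.0449), NK4A136 sequence 5 at 8, 14 and 19 dpi (0.0373, 0.00779 and 0.0337) and NK4A136/Hungatella sequence 1 at 14 and 19 dpi (0.0398 and 0.0334). Between CFA and naïve mice it held for Eubacterium_F sequence 1 and NK4A136 sequence 2 at 14, 19 and 29 dpi (adjusted p = 0.0287, 0.0371 and 0.0478 for both) and Acetatifactor sequence 1 at 19 dpi (0.0139). Between EAE and CFA mice it held for Roseburia sequence 3 at 8 dpi (0.0379). Acetatifactor sequence 1 and NK4A136 sequence 5 were members only through naïve mice, and Roseburia sequence 3 only through CFA mice. The p-values listed above for these 3 sequences are no fair test of a difference. Their contrasts use the treatment that made them members, so nothing is read from these p-values. Most of these contrasts include a group at 0 and share the naïve or CFA samples with each other, and 3.94% to 11.8% of all sequences were called in them.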

How the results depend on the processing

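Counts of called member sequences depended on the tool. In place of 0, 0, 2 and 6 calls at -2, 8, 14 and 19 dpi in EAE against naïve mice, DESeq2 made 19, 10, 19 and 20. Over the 5 days it made 16, 17, 21, 23 and 22 in EAE against CFA mice and 19, 19, 19, 23 and 25 in CFA against naïve mice. With no filter on rare taxa, EAE against naïve mice gave 0, 3 and 0 at 14, 19 and 29 dpi, EAE against CFA mice 3, 1 and 4 at 8, 14 and 19 dpi, and CFA against naïve mice 3, 4, 3 and 0 at -2, 14, 19 and 29 dpi. The exact permutation test, adjusted over 203 sequences, passed 2 sequences in EAE against CFA mice at 14 dpi and 0 in all other comparisons. Single ASVs as deposited gave 0, 0 and 1 call at 14, 19 and 29 dpi in EAE against naïve mice, 0, 1, 1 and 0 from 8 to 29 dpi in EAE against CFA mice, and 1 at 14 dpi and 0 otherwise in CFA against naïve mice. Total counts alone gave 3 for EAE against naïve mice at 19 dpi.

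Without mouse 555 at 8 dpi and mouse 595 at 19 dpi there were 3 calls against naïve and 5 against CFA mice at 19 dpi, and 2 genera in place of 4 in EAE against CFA mice. Without the animal numbered 550 and then 588, an alternative chosen after seeing the data, there were 3 and 0 calls at 19 and 29 dpi against naïve mice, 1, 0, 4 and 0 at -2, 14, 19 and 29 dpi against CFA mice, and 1 genus against CFA mice, and the family's log2 fold change of EAE against CFA mice at 14 dpi was -1.68 and no longer passed. Leaving out single mice gave 0 to 2 calls for EAE against naïve mice at 14 dpi (1 without mouse 589 or 595, 0 without 593), 0 to 0 for EAE against CFA mice at 14 dpi, 0 to 1 at 29 dpi (0 without mouse 545, 546 or 547), and 0 to 3 for CFA against naïve mice at 29 dpi (1 without mouse 543, 0 without 547). For the family at 14 dpi it gave -1.98 to -1.54 against CFA mice and -1.14 to -0.69 against naïve mice, and at 29 dpi -0.30 to 0.07 for EAE against CFA and -0.56 to -0.20 for CFA against naïve mice. Genera called numbered 0 to 1 for EAE against naïve mice and within EAE mice (1 without mouse 593).

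For genera from 8 to 29 dpi, DESeq2 called 3 in EAE against naïve and 8 in EAE against CFA mice, no filter gave 3 in CFA against naïve mice in place of 5, and the permutation test passed 1 in EAE against naïve mice. For the family in CFA against naïve mice at 14 dpi, only the permutation test passed (26.3 percentage points). Within treatments, DESeq2 called 31, 22 and 32 sequences and 2, 5 and 5 genera in naïve, CFA and EAE mice, and no filter gave 0 sequences in naïve mice and 1 genus in EAE mice. The mouse number as a replicate block gave 3, 0 and 0 sequences, as without the pairing, and it changed no other call count. In EAE mice it was applied to 8 against -2 dpi only. With ASVs seen in 1 or 2 samples, the members' total was 17.2% and 20.2% in naïve mice at 14 and 19 dpi and 9.29% in EAE mice at 14 dpi. Causes of these differences were not tested.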
